A study of Homo sapiens with 6 samples.

Results

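The transforming growth factor beta (TGF-beta) pathway was followed through 10 genes: the ligands TGFB1 and TGFB2, the latent-ligand family gene LTBP2, the receptors TGFBR1 and TGFBR2, the signal carrier SMAD3, the negative regulators SMAD7, SKIL and PMEPA1, and the target gene TGFBI. They were chosen by name, with earlier results of these data known, and they are 10 of the 58735 genes in the count table. RNA-Seq was performed on BT549, an established cell line from a basal-like breast cancer. Cells received the solvent DMSO (3 libraries, replicates A, B and C) or AS1842856 for 48 h (3 libraries, replicates A, B and C). The comparison asks which transcripts differ with AS1842856, which binds the transcription factor FOXO1 in its unphosphorylated form and hinders its DNA binding. The study proposes that the compound modulates FOXO1 and does not only inhibit it. In its qRT-PCR of BT549 cells, AS1842856 raised LEF1 while FOXO1 RNAi lowered it. The sample labels give a dose of 200 nM and the text of the study gives 1 μM, so the dose is uncertain. No other cell line, untreated culture or second compound is among the 6 libraries used here, so a change seen here is a change with AS1842856 relative to DMSO in 1 line. Libraries held between 15289500 and 22981832 counts.

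TGF-beta ligands are secreted in a latent complex, which is anchored in the extracellular matrix by latent TGF-beta binding proteins and opened by integrins, proteases or thrombospondin. The active ligand brings together a type II receptor (TGFBR2) and a type I receptor (TGFBR1), which phosphorylates SMAD2 and SMAD3. These join SMAD4, enter the nucleus and act on target genes, some of which (SMAD7, SKIL, PMEPA1) encode proteins that restrain the pathway. In breast cancer the pathway is known both for slowing growth and for promoting invasion, matrix deposition and loss of epithelial features.

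All 10 had enough counts to be tested, and all 10 were called by the quasi-likelihood test of edgeR (adjusted p under 0.05), 6 of them higher with AS1842856 and 4 lower. That number has to be read against a broad response, since 56.0% of all 14338 genes tested were called, 27.6% as higher and 28.4% as lower. TGFB2 and PMEPA1 rose by more than 1 on the log2 scale, and SMAD3 and LTBP2 fell by more than 1. A called change of that size was found in 10.6% of the genes tested. In all 10 genes the libraries of both groups did not overlap in normalized counts, which was so for 59.9% of the genes tested. The median log2 fold change of the 10 genes was 0.35 and the median of its size was 0.80, where all genes tested had 0.0030 and 0.26. Since the 10 genes were chosen with earlier results known, these comparisons describe them and do not test the pathway. Because 3 libraries are compared with 3, a two-sided exact permutation test cannot go below p = 0.1, so p-values of single genes come from the edgeR fit across all genes.

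Promoter sequence is shown for the 4 genes that changed by more than 1, because it is the DNA on which SMAD and forkhead proteins could act. The windows were taken from RefSeq on GRCh38.p14 as the first listed start of each gene, 5′ to 3′ on the strand of the gene, and bases inside an exon of the gene in GENCODE 29 were left off. Those shown are chr20:57711537-57711722 (minus strand), chr1:218345086-218345335 (plus strand), chr15:67065352-67065601 (plus strand), which lies within the gene as GENCODE 29 draws it, and chr14:74612379-74612487 (minus strand). Capitals mark CAGAC, the letters of the SMAD-binding element, or GTCTG, its reverse complement.
PMEPA1: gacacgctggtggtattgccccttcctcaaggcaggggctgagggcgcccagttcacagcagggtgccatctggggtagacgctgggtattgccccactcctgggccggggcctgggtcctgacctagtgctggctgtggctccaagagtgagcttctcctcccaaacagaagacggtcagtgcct
TGFB2: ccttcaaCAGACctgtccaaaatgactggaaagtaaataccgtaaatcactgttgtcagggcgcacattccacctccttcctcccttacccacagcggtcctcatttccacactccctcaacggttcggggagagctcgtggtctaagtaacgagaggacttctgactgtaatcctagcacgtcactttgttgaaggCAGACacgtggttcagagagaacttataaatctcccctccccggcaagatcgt
SMAD3: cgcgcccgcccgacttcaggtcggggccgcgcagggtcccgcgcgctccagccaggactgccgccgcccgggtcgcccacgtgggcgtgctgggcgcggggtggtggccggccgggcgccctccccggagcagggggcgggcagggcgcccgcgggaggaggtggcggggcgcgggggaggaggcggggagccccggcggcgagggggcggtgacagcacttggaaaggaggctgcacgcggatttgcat
LTBP2: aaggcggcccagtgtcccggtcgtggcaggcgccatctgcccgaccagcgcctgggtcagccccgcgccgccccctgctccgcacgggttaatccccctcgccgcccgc
The only capitals are the pair of CAGAC matches of TGFB2, 243 and 53 bases before the RefSeq start. In GENCODE 29 TGFB2 starts further downstream, at 218346235, so both matches lie farther from that start. In SMAD3 and LTBP2 a CAGAC lay beyond the RefSeq start, in the last 50 bases of the 300-base window, which are not shown. Over the full 300-base windows, CAGAC or GTCTG was found in 6 of the 10 genes (TGFB2, TGFBR1, SMAD3, SMAD7, SKIL and LTBP2), and in 44.95% of the first windows of 27305 genes. These letters were added to the search after the data had been seen. The palindrome GTCTAGAC (0.201% of windows), the forkhead letters GTAAACA or TGTTTAC (3.41%) and the AP-1 letters TGACTCA or TGAGTCA (4.92%) were in none of the 10 first windows. In the other starts listed for these genes, the AP-1 letters were found in a window of TGFBR2 and in a window of SMAD3. CAGAC or GTCTG were found in 3 further windows of PMEPA1 and in other windows of TGFBR1, SMAD3 and SMAD7. In this way 7 of the 10 genes held CAGAC or GTCTG in some window, where 45.26% of all single windows held them. A gene with more listed starts has more windows that can match. The match is one of letters only, and which start the BT549 cells used was not measured.

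The balance of the ligands changed with AS1842856. Levels of different genes are compared here as FPKM, which is divided by gene length, and changes were tested on counts. Shares, ratios between genes and the order of genes in FPKM therefore depend on annotated length. TGFB1 (chr19:41301587-41353911, minus strand), the ligand with the most transcript in DMSO, had 31.3, 30.5 and 29.03 FPKM in DMSO and 20.5, 21.3 and 19.2 FPKM with AS1842856. Its 3 AS1842856 libraries were all below its 3 DMSO libraries, and TGFB1 fell by 0.57 on the log2 scale (SE 0.05, adjusted p = 1.28e-24, edgeR). TGFB1 shares 215 exon bases with HNRNPUL1 on the opposite strand, and the use of strand in counting is not stated. HNRNPUL1 held 663% as many counts as TGFB1 and had a log2 fold change of -0.20 (edgeR, adjusted p = 3.25e-08), and the part of shared reads in the value of TGFB1 was not tested. CCDC97 and TMEM91 also lie across TGFB1 on the opposite strand but share no exon base with it, with log2 fold changes of 0.25 and -1.01. The value of TMEM91 rests on 9 to 52 counts in a library, its groups overlapped, and its call was lost under 4 of 12 settings.

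TGFB2 (chr1:218346235-218444619, plus strand) had 3.20, 3.22 and 3.23 FPKM in DMSO, the lowest level among the 10 genes, and 16.6, 17.6 and 16.99 FPKM with AS1842856. It was 5.30-fold higher, with a log2 fold change of 2.41 (SE 0.06, adjusted p = 7.06e-103, edgeR), larger in size than that of 98.1% of genes tested. The least count behind these values was 257 reads, in DMSO replicate B, so they do not rest on few reads.

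The ratio of TGFB1 to TGFB2 in FPKM was 9.40 ± 0.391 (SD, n = 3) in DMSO and 1.19 ± 0.0558 (SD, n = 3) with AS1842856. This is a difference of -2.98 on the log2 scale, with no overlap and the smallest p that the exact permutation test allows, p = 0.1. All treated libraries were already lower in TGFB1 and higher in TGFB2, so the ratios had to separate and this p was fixed. The test adds nothing to the results of the single genes. TGFB3, the third ligand of this family, was at 1.15 ± 0.179 FPKM in DMSO and 3.89 ± 0.116 FPKM with AS1842856 (SD, n = 3), and rose by 1.74 on the log2 scale (SE 0.12, adjusted p = 3.02e-35, edgeR). It lies within IFT43, a gene of the opposite strand with 79.9% as many counts and a log2 fold change of 0.33, but shares no exon base with it. Over the 3 ligands together, the summed level was 34.6 ± 1.23 FPKM in DMSO and 41.3 ± 1.38 FPKM with AS1842856 (SD, n = 3). TGFB1 made up 87.4% of that sum in DMSO and 49.2% with AS1842856, while TGFB2 went from 9.31% to 41.3% and TGFB3 from 3.31% to 9.44% (means of 3 libraries).

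**Figure D1:**
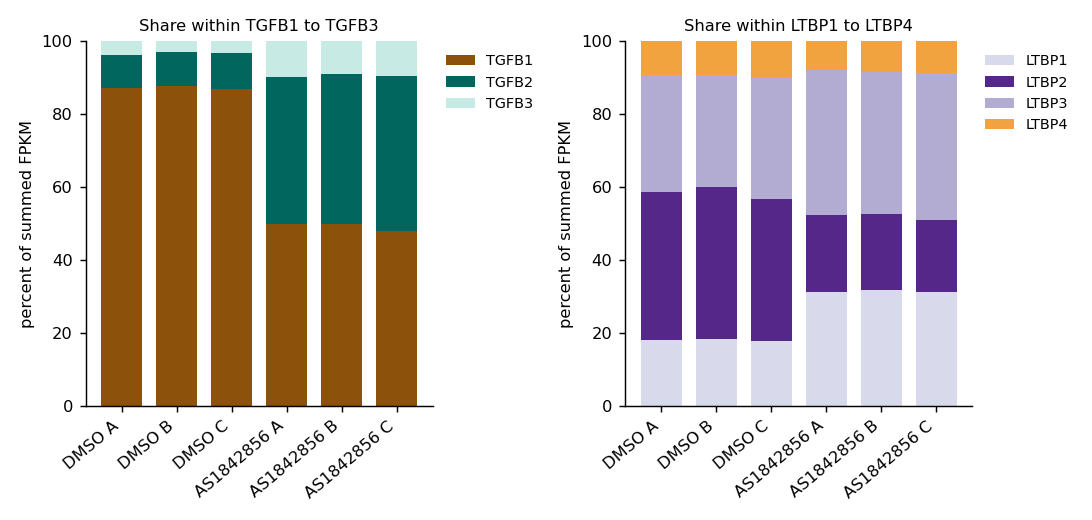
Share of each gene in the summed FPKM of TGFB1 to TGFB3 (left) and of LTBP1 to LTBP4 (right), in percent, in each of the 6 libraries. TGFB1 holds between 87.0% and 87.8% of the ligand sum in DMSO and between 48.0% and 49.9% with AS1842856, and LTBP2 holds between 39.2% and 41.6% of the binding protein sum in DMSO and between 19.8% and 21.2% with AS1842856.

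Of the 6 other ligands that signal through SMAD2 and SMAD3, 3 had enough counts to be tested (TGFB3, INHBA and GDF11), and all 3 were higher, beside 27.6% of all genes tested. INHBA, a subunit of activin, went from 10.1 ± 1.28 to 27.7 ± 3.25 normalized CPM (SD, n = 3), with a log2 fold change of 1.45 (edgeR, adjusted p = 3.49e-35). INHBB, MSTN and NODAL were too low to test.

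Transcripts for holding and opening the latent ligand were mostly lower. LTBP2 (chr14:74498170-74612378, minus strand) belongs to the latent TGF-beta binding protein family and is a microfibril protein, though it is known not to bind the latent ligand as its relatives do. It had 26.6, 26.5 and 22.4 FPKM in DMSO and 9.23, 9.41 and 9.01 FPKM with AS1842856. DMSO replicate C was the lowest of its group and still far above all 3 AS1842856 libraries. LTBP2 was 2.73-fold lower, and fell by 1.45 on the log2 scale (SE 0.04, adjusted p = 1.19e-46, edgeR). Its share of the summed FPKM of the 4 family members went from 40.5% to 20.6%, that of LTBP1 from 18.0% to 31.4%, that of LTBP3 from 32.1% to 39.7% and that of LTBP4 from 9.39% to 8.32%, with a sum of 62.1 ± 4.27 FPKM in DMSO and 44.7 ± 0.994 FPKM with AS1842856 (SD, n = 3). The larger share of LTBP3 came with a lower level, 19.9 ± 0.890 FPKM in DMSO and 17.7 ± 0.602 FPKM with AS1842856 (SD, n = 3), and it fell by 0.17 on the log2 scale (edgeR, adjusted p = 7.35e-05). LTBP4 fell by 0.64 (edgeR, adjusted p = 1.27e-18).

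Among 13 further genes of the latent complex and its activation, 10 were tested, of which 9 fell and 1 rose (median log2 fold change -0.76), where 28.4% of all genes tested fell and 27.6% rose. The riser was LTBP1, a carrier of the latent ligand, with a log2 fold change of 0.33 (edgeR, adjusted p = 1.40e-10). THBS1, the thrombospondin that can activate latent TGF-beta and is also a target of the pathway, fell from 849.8 ± 31.7 to 160.9 ± 5.27 normalized CPM (SD, n = 3), by 2.40 on the log2 scale (edgeR, adjusted p = 2.87e-154). FBN1, the fibrillin to which binding proteins attach, fell by 0.92 (edgeR, adjusted p = 3.94e-55). LRRC32, ITGB6 and EMILIN1 were too low to test.

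The receptor subunits moved in opposite directions. TGFBR1 (chr9:99104038-99154192, plus strand), the type I receptor kinase, had 15.5, 16.3 and 14.9 FPKM in DMSO and 9.82, 8.45 and 8.71 FPKM with AS1842856. All 3 treated libraries were lower than the DMSO libraries, and TGFBR1 fell by 0.79 on the log2 scale (SE 0.05, adjusted p = 7.81e-39, edgeR).

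TGFBR2 (chr3:30606502-30694142, plus strand), the type II receptor that binds the ligand first, had 23.2, 23.4 and 21.6 FPKM in DMSO and 30.5, 29.9 and 28.1 FPKM with AS1842856. It rose by 0.38 on the log2 scale (SE 0.04, adjusted p = 9.24e-16, edgeR), a change larger in size than that of 63.9% of genes tested. The ratio of TGFBR1 to TGFBR2 in FPKM was 0.685 ± 0.0142 in DMSO and 0.304 ± 0.0201 with AS1842856 (SD, n = 3), a difference of -1.17 on the log2 scale. The exact permutation test again gave the smallest p it allows, p = 0.1, which was fixed by the opposite moves of the single genes. The level of the ratio depends on annotated length. In normalized CPM, not divided by length, TGFBR1 had a mean of 107.2 in DMSO and 61.9 with AS1842856, and TGFBR2 had 107.6 and 139.8.

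Of 7 other receptors and co-receptors, 6 were tested, 3 fell, 1 rose and 2 (ACVR1B and ACVR2B) were not called. The share called was 66.7%, beside 56.0% of all genes tested. The co-receptor ENG (endoglin) fell by 0.56 on the log2 scale (edgeR, adjusted p = 1.08e-20), and ACVR2A, a type II activin receptor, by 0.58 (edgeR, adjusted p = 0.000202). The call of ACVR2A was lost with limma on FPKM in all 3 forms tried, and its adjusted p ranged from 8.06e-06 to 0.108 over 15 settings. ACVR2A shares 430 exon bases with ORC4, which had 308% as many counts and a log2 fold change of -0.11 (edgeR, adjusted p = 0.260). ACVR1C, a type I receptor for nodal and activins, was near the limit of detection in DMSO (4 to 11 counts in a library) and higher with AS1842856 (53 to 85 counts), with a log2 fold change of 3.07 (SE 0.33, adjusted p = 4.60e-17, edgeR).

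**Figure D2:**
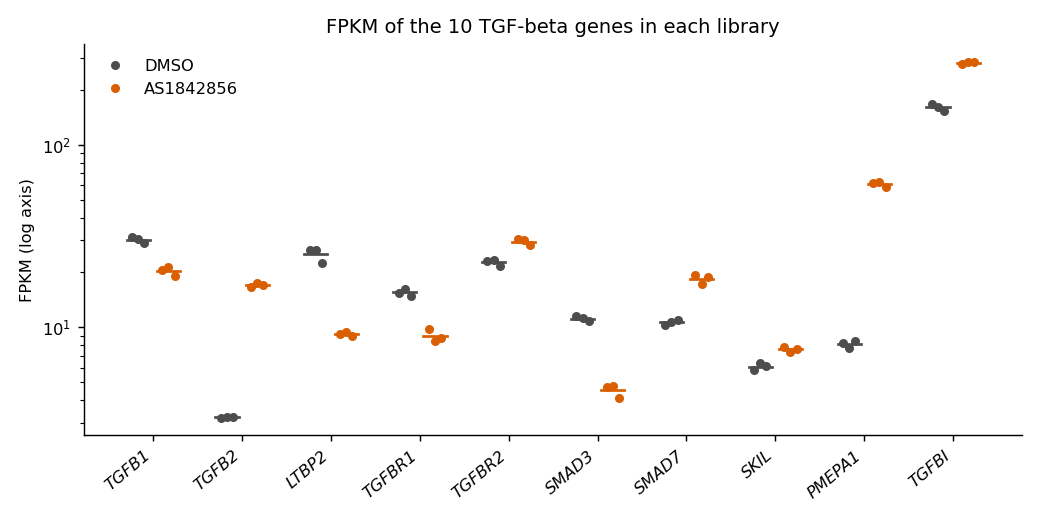
FPKM (log axis) of the 10 genes in each library, with DMSO in grey and AS1842856 in orange, points for replicates A, B and C and a line for the mean of 3. Points of the groups do not overlap in any of the 10 genes, and PMEPA1 goes from the eighth level in DMSO to the second with AS1842856.

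SMAD3 (chr15:67063763-67195195, plus strand), which carries the signal from the receptor to DNA, had 11.5, 11.2 and 10.8 FPKM in DMSO and 4.72, 4.75 and 4.10 FPKM with AS1842856. No treated library reached the level of any DMSO library. SMAD3 was 2.47-fold lower, falling by 1.30 on the log2 scale (SE 0.05, adjusted p = 4.11e-67, edgeR). SMAD2, its partner in the same role, had a log2 fold change of 0.13 (SE 0.05, adjusted p = 0.0358, edgeR) with overlapping libraries. The call of SMAD2 was lost under 9 of 15 other settings, among them DESeq2 (adjusted p = 0.139), the removal of DMSO replicate A or C, and the removal of AS1842856 replicate A or B, and its adjusted p ranged from 0.0112 to 0.477 over the 15. The ratio of SMAD2 to SMAD3 in FPKM was 0.147 ± 0.00851 in DMSO and 0.396 ± 0.0263 with AS1842856 (SD, n = 3), a ratio chosen after the values had been seen and not tested. Its level depends on annotated length, with 36366 exon bases for SMAD2 and 9113 for SMAD3. In normalized CPM, not divided by length, SMAD2 had a mean of 60.1 in DMSO and 65.3 with AS1842856. SMAD3 had 102.4 and 41.5. SMAD4, which SMAD2 and SMAD3 both bind, had a log2 fold change of -0.19 (SE 0.06, adjusted p = 0.00434, edgeR), also with overlap between groups, and its call was lost under 5 of 15 settings. It was lost without DMSO replicate B, where its log2 fold change was -0.13 (edgeR, adjusted p = 0.0840), and over the 15 settings its adjusted p ranged from 0.000127 to 0.205.

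Of the 7 other SMADs and partners listed, 6 were tested, 3 rose, 2 fell and EP300 was not called. This made 83.3% called, beside 56.0% of all genes tested. That count of 5 calls was 2 without DMSO replicate C, 3 without AS1842856 replicate B and 2 with DESeq2. ZFYVE9 (SARA), which presents SMADs to the receptor, fell by 1.19 on the log2 scale (edgeR, adjusted p = 9.26e-23). It shares 144 exon bases with CC2D1B, which had 457% as many counts and a log2 fold change of 0.12. CREBBP, a coactivator, had a log2 fold change of 0.14 (edgeR, adjusted p = 0.00745). Its call was lost under 2 of 15 settings, among them the removal of DMSO replicate C (edgeR, adjusted p = 0.0764). Over the 15 settings its adjusted p ranged from 0.00645 to 0.0764.

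The 3 negative regulators among the 10 genes were all higher. PMEPA1 (chr20:57648392-57711536, minus strand) encodes a membrane protein that keeps SMAD2 and SMAD3 from the receptor and is itself a target of the pathway. It had 8.23, 7.66 and 8.42 FPKM in DMSO and 61.5, 62.4 and 58.8 FPKM with AS1842856. This was the largest change among the 10 genes, 7.50-fold, with a log2 fold change of 2.91 (SE 0.04, adjusted p = 2.41e-156, edgeR), larger in size than that of 98.8% of genes tested. NKILA, an antisense RNA that shares 343 exon bases with PMEPA1, had 0.748% as many counts and was also higher, with a log2 fold change of 1.67 (edgeR, adjusted p = 5.16e-06).

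SMAD7 (chr18:48919853-48952052, minus strand), the inhibitory SMAD that blocks and degrades the type I receptor, had 10.3, 10.7 and 11.0 FPKM in DMSO and 19.3, 17.3 and 18.9 FPKM with AS1842856. It rose by 0.79 on the log2 scale (SE 0.05, adjusted p = 2.65e-37, edgeR). SMAD6, the inhibitory SMAD better known for BMP signaling, fell by 0.65 (edgeR, adjusted p = 7.12e-27). The ratio of SMAD7 to SMAD6 was 1.11 ± 0.0543 in DMSO and 3.02 ± 0.269 with AS1842856 in FPKM (SD, n = 3). SMAD6 and this ratio were picked after the values had been seen, and the ratio was not tested.

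SKIL (chr3:170357678-170396835, plus strand) encodes SnoN, a nuclear corepressor of SMAD complexes. It had 5.81, 6.36 and 6.11 FPKM in DMSO and 7.77, 7.32 and 7.63 FPKM with AS1842856. The groups were close but did not overlap, and SKIL had the smallest change of the 10 genes, with a log2 fold change of 0.32 (SE 0.06, adjusted p = 2.71e-07, edgeR).

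Among 15 other inhibitors 13 were tested, of which 4 rose, 6 fell and 3 (SMURF1, TGIF2 and PPM1A) were not called, with a median log2 fold change of -0.08. The share called was 76.9%, beside 56.0% of all genes tested. FST (follistatin), which traps activins, rose from 4.26 ± 0.338 to 39.2 ± 2.38 normalized CPM (SD, n = 3), by 3.21 on the log2 scale (SE 0.10, adjusted p = 4.35e-85, edgeR). FKBP1A, which holds the type I receptor inactive, rose by 0.32 (edgeR, adjusted p = 1.26e-17). The ubiquitin ligases NEDD4L and SMURF2, which act on SMADs and receptors, fell by 1.76 (adjusted p = 2.98e-27) and 0.79 (adjusted p = 1.21e-38, both edgeR). SMURF2 shares 167 exon bases with CEP95, which held 20.9% as many counts and had a log2 fold change of 0.12.

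**Figure D3:**
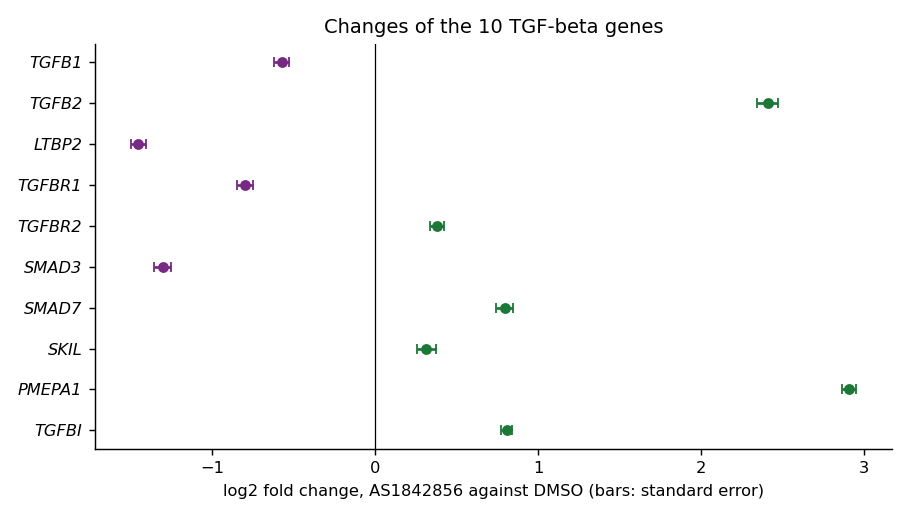
Log2 fold change of each of the 10 genes (AS1842856 against DMSO, points) with its standard error (bars), ordered by role from ligands to targets. TGFB1, LTBP2, TGFBR1 and SMAD3 lie below 0, and the other 6 lie above it, with PMEPA1 at 2.91 and TGFB2 at 2.41.

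TGFBI (chr5:136028895-136063818, plus strand), named for its induction by TGF-beta, encodes a secreted matrix protein and had the highest level among the 10 genes. It had 168.2, 162.1 and 154.0 FPKM in DMSO and 277.2, 284.6 and 285.7 FPKM with AS1842856. Its libraries did not overlap, and TGFBI rose by 0.81 on the log2 scale (SE 0.03, adjusted p = 2.03e-68, edgeR).

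Other genes known to be induced by TGF-beta did not move in 1 direction. Of 41 listed, 39 were tested, of which 17 rose, 19 fell and 3 (KLF10, SPHK1 and NEDD9) were not called. The share called was 92.3%, beside 56.0% of all genes tested. Their median log2 fold change was -0.17 and the median of its size was 1.10. A called change of at least 1 was found in 21 of them, and in 10.6% of all genes tested. IL11 had at most 1 count in a DMSO library, and only a lower bound holds for its change. That bound also lies above the median of -0.17, so the median cannot depend on it. CTGF, a matricellular protein, fell from 443.5 ± 23.4 to 83.4 ± 3.83 normalized CPM (SD, n = 3), by 2.41 on the log2 scale (edgeR, adjusted p = 4.57e-141). LOX, the collagen crosslinking enzyme, fell by 2.29 (edgeR, adjusted p = 1.39e-128), and shares 138 exon bases with SRFBP1, which held 21.3% as many counts. Rises were seen in COL7A1, the anchoring fibril collagen, with a log2 fold change of 2.08 (edgeR, adjusted p = 1.84e-37), and in PTHLH, a parathyroid hormone-like factor, with 2.09 (SE 0.27, adjusted p = 1.90e-12, edgeR). PTHLH was low in DMSO, with 11 to 25 counts in a library.

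Of 6 genes that TGF-beta is known to repress, 5 were tested, 4 fell and 1 rose, where 28.4% of all genes tested fell and 27.6% rose. MYC fell by 1.33 on the log2 scale (edgeR, adjusted p = 1.47e-84) and ID2, an inhibitor of helix-loop-helix factors, by 0.89 (edgeR, adjusted p = 1.50e-45), while CDC25A, a cell cycle phosphatase, rose by 0.20 (edgeR, adjusted p = 0.000623). Over all 95 listed pathway genes beside the 10, 82 were tested, 30 rose, 43 fell and 9 were not called, so 89.0% of those tested were called, beside 56.0% of all genes tested. The lists too were chosen with earlier results of these data known, so this difference is not a test of the pathway.

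**Figure D4:**
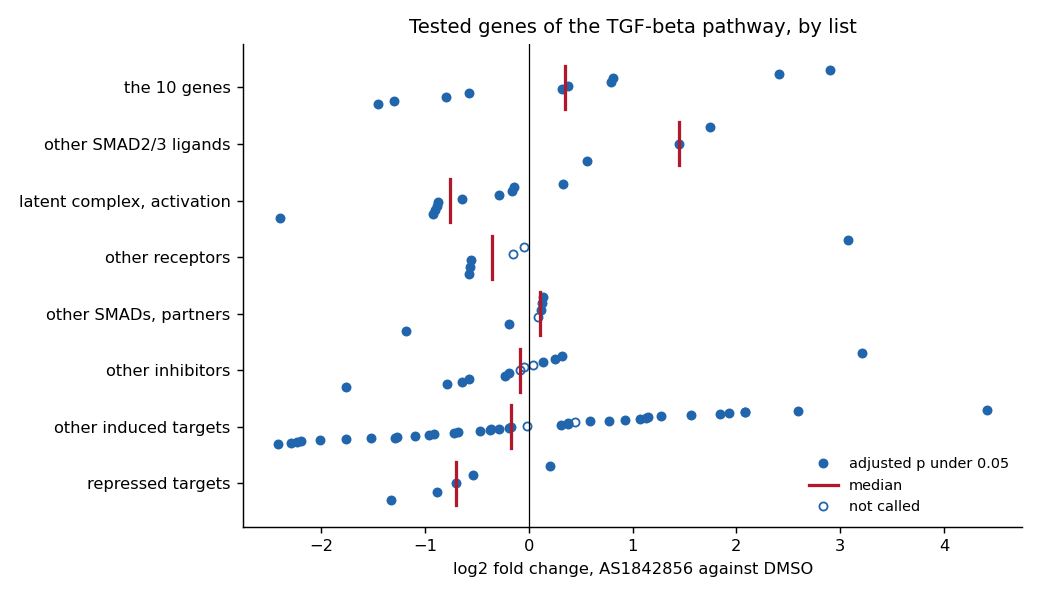
Log2 fold change (AS1842856 against DMSO) of every tested gene of the 10 genes and of the 7 other lists, with filled points for genes called at an adjusted p under 0.05, open points for genes not called, and a red line for the median of each list. The other ligands lie to the right of 0, 9 of 10 genes of the latent complex lie to the left, and the induced targets spread to both sides. The point farthest to the right is IL11, with at most 1 count in a DMSO library, for which only a lower bound of at least 5.38-fold higher holds, from 3 counts in each DMSO library.

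Within a group, the order of the 10 genes by mean FPKM differed. In DMSO it ran TGFBI, TGFB1, LTBP2, TGFBR2, TGFBR1, SMAD3, SMAD7, PMEPA1, SKIL and TGFB2, and the libraries of LTBP2 and TGFBR2, and of SMAD3 and SMAD7, overlapped. With AS1842856 it ran TGFBI, PMEPA1, TGFBR2, TGFB1, SMAD7, TGFB2, LTBP2, TGFBR1, SKIL and SMAD3, and the neighbours TGFB1 and SMAD7, SMAD7 and TGFB2, and LTBP2 and TGFBR1 overlapped. SMAD3 thus had the lowest level of the 10 with AS1842856, in the place TGFB2 held in DMSO.

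Markers of the cell line were compared as summed normalized CPM. The 5 mesenchymal markers were all detected, with sums of 3072 to 3191 in DMSO and 3070 to 3103 with AS1842856, and 2 of them rose and 3 fell. Of 6 epithelial markers EPCAM, CDH1, KRT5 and KRT14 were at or near 0, while KRT8 and KRT18 fell, which took the sum from between 72.7 and 79.0 in DMSO to between 7.36 and 7.92 with AS1842856. The 5 hormone receptor and HER2 markers summed to 96.3 to 103.8 in DMSO and 84.5 to 90.8 with AS1842856, with ESR1 and PGR near 0. Behind that sum, mean ERBB2 (HER2) fell from 46.7 to 25.0 and FOXA1 from 1.43 to 0.673, while GATA3 rose from 50.9 to 61.7. Of 5 leukocyte markers CD3E was at 0 and PTPRC rose, with sums of 0.807 to 1.82 and 2.70 to 3.59, and 4 endothelial markers summed to at most 0.360. Mitochondrially encoded genes held 2.83% to 3.02% of counts in DMSO and 2.65% to 2.74% with AS1842856. The part of these differences in the changes of the 10 genes was not tested, and in bulk RNA fewer cells of a type and less RNA per cell cannot be told apart.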

How the data were processed

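RNA-Seq was measured in BT549 cells, 3 DMSO and 3 AS1842856 libraries, grouped by the sample labels. The authors mapped reads with STAR, while the submitters' processing notes list CASAVA, Bowtie 0.12.2, GRCh38 and hg38. The counting tool and the use of strand are not given in the sources used here. The authors deposited raw counts per gene. FPKM values, divided by gene length and library size, were deposited for 25015 genes. All 58735 gene identifiers were found in GENCODE release 29 (Ensembl 94, GRCh38), which gave symbols and positions.

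The test on counts used edgeR 4.0.16 (R 4.3.3) with filterByExpr (minimum count 10, minimum total count 15), TMM, robust glmQLFit, glmQLFTest and Benjamini-Hochberg adjustment over 14338 genes, with a threshold of 0.05. The filter removed 13170 genes with counts. The SE is the size of the log2 fold change divided by the square root of F. Totals were 15289500 to 22981832 counts, and the common biological coefficient of variation was 0.0374. Replicates differed beyond counting noise in each pair. The labels do not say that replicates were separate cultures, although the study calls them biological, so p-values measure the spread between these libraries. The ratios of TGFB1 to TGFB2 and of TGFBR1 to TGFBR2 in FPKM were compared by an exact two-sided permutation test, whose outcome the single genes fixed.

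The 10 genes and the pathway lists, written from general knowledge, were chosen with earlier results of these data known. Of each list, up to 2 rises and 2 falls with the largest change were named, among genes with an adjusted p under 0.05 and a mean of at least 1 CPM, together with CTGF, SMAD2, SMAD4 and TGFB3, and genes with counts that overlap the 10. SMAD6, IL11, GDF11, LTBP3, LTBP4, genes that overlap other named genes and hold at least 20% as many counts, and genes that were not called or not tested were named beyond that rule. Results of some single genes, which are counted in their lists, are not reported here. Alternatives were DESeq2 1.42.0, other scalings and filters, removal of each library, a block for the replicate letter, and limma 3.58.1 (trend) on FPKM with pseudocounts of 1 and 0.1. Promoter windows of 300 bases came from RefSeq (GRCh38.p14) and covered all 10 genes.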

Additional observations from a re-analysis of the deposited data

How the results depend on the processing

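All 10 genes kept their direction and their call under each of the 15 alternatives, with log2 fold changes of TGFB2 between 2.10 and 2.42, PMEPA1 between 2.77 and 2.93, TGFB1 between -0.61 and -0.53 and LTBP2 between -1.53 and -1.35, and a largest adjusted p of 0.00480, for SKIL. The count of genes called with a change of at least 1 was 1520, and 931 for genes with a mean of at least 50 counts, 545 with limma on log2(FPKM + 1) and 540 with the same and no filter, where fewer genes were tested or the added 1 shrinks low values. Of the receptors and co-receptors, 4 were called, and 2 with limma on log2(FPKM + 1) or log2(FPKM + 0.1). Of the latent complex and activation genes, 10 were called, 8 with DESeq2, 8 for genes with a mean of at least 50 counts and 7 with each of the 3 forms of limma. With a library left out, between 8 and 10 of them were called. Of the SMADs and partners, 5 were called, 2 with DESeq2, 3 with no filter, 2 with limma on log2(FPKM + 1), 2 on log2(FPKM + 0.1) and 1 on log2(FPKM + 1) with no filter, and between 2 and 5 with a library left out, 2 of them without DMSO replicate C and 3 without AS1842856 replicate B. The cause was not tested. With a library left out, between 7427 and 7678 genes were called in all, against 8029. The replicate letters did not pair the samples (correlations of deviations 0.026, -0.011 and -0.013), and with the letter as a replicate block 7862 genes and all 10 genes were called. No log2 fold change or ratio that was recomputed for a named gene changed direction. The median log2 fold change of all genes tested, 0.0030, was -0.0021 for genes with a mean of at least 50 counts, -0.00086 with library totals alone and -0.00057 without DMSO replicate A, and the share of calls that were higher, 49.2%, ranged from 47.2% to 50.3%. Depth limits the 13 listed genes that were too low to test, and among those tested also genes with few counts, such as ACVR1C, IL11 and PTHLH.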
